A study of Mus musculus with 6 samples.

Results

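Matrix metalloproteinases (MMPs), ADAMTS proteases and their inhibitors, the TIMPs, were examined in astrocytes sorted from the brains of hyperglycemic and control mice. Protein-coding genes were taken by symbol (Mmp, Adamts or Timp followed by a number) and kept when a read was counted in at least 3 of the 6 samples. This gave 39 genes of the 45777 listed, namely 16 of the 23 MMPs, all 19 ADAMTS proteases and all 4 TIMPs. The 7 MMPs left out were Mmp1a, Mmp1b, Mmp3, Mmp7, Mmp10, Mmp20 and Mmp27, and no sample held more than 14 reads of any of them. Of the 39 genes, 35 had a read in every sample and were tested. Adamts13, Adamts18, Adamts19 and Mmp13 had none in at least 1 sample and are given by their counts.

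The study asked how hyperglycemia changes astrocytes. All mice carried an inducible Cre recombinase under the Aldh1l1 promoter together with a floxed tdTomato reporter (the sample labels give the genotype as WT), and all received tamoxifen (75 mg/kg for 5 days), so that cells which had used this promoter became red. Male mice 8 weeks old were injected once with streptozotocin (STZ, 150 mg/kg), which kills pancreatic beta cells and so raises blood glucose, or with citrate buffer alone (vehicle), and brains were taken 21 days later. STZ-injected mice entered the study when blood glucose exceeded 250 mg/dl at 5 days. Red cells were sorted from dissociated brain, and each of the 3 samples per group pooled 3 mice.

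MMPs are zinc proteases that are made as inactive proenzymes and cut collagens, gelatin, elastin and other matrix proteins, as well as cell surface proteins. ADAMTS proteases carry thrombospondin repeats, and several of them cut the large chondroitin sulfate proteoglycans that fill the extracellular space of the brain. TIMPs bind and block the active enzymes, and Timp2 together with the membrane enzyme Mmp14 also takes part in activating pro-Mmp2. In the brain these enzymes are best known for remodelling the basement membrane of vessels and perineuronal matrix, and neutrophils carry Mmp8, Mmp9 and Mmp25 in their granules.

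Depth was similar in all samples, between 52529048 and 58749115 counts, and 3 counts amounted to 0.0511 to 0.0571 CPM, counts relative to the depth of the sample, a limit that covers counting error only. Astrocyte markers were abundant in all samples (Aldh1l1, Aqp4, Slc1a2, Slc1a3, Gja1 and Gfap summed to 6933 to 9362 TPM, the deposited per-length unit that adds up to the same total in every sample). RNA of other cells was present and uneven. The 4 neutrophil markers S100a8, S100a9, Ngp and Camp summed to 443, 452 and 2534 TPM in vehicle replicates 1 to 3 and to 3215, 3549 and 1536 TPM in STZ replicates 1 to 3. Summed oligodendrocyte markers ranged from 447 to 1432 TPM with vehicle and from 527 to 2289 TPM with STZ, choroid plexus and ependymal markers (mostly Ttr) from 10389 to 29380 and from 15716 to 26492 TPM, endothelial markers from 62.6 to 221 and from 229 to 439 TPM, and mural (pericyte and smooth muscle) markers from 88.1 to 131 and from 126 to 175 TPM. In such bulk samples, fewer cells of a type and less RNA per cell cannot be told apart.

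The inhibitors Timp3 and Timp4 were the most abundant of the 39 genes. In FPKM (read fragments scaled to transcript length and depth, as deposited), Timp3 had a mean of 167 and Timp4 of 164 over the 6 samples, which by TPM placed them above 98.6% and 98.5% of the protein-coding genes listed. The membrane protease Mmp14 followed with 70.0 FPKM and Timp2 with 61.3. Mmp8 (17.0) and Mmp9 (13.1) were next, and their values spread widely over the samples. Adamts1 (6.36), Mmp11 (5.58), Adamts20 (3.01), Adamts10 (2.86), Mmp2 (2.43), Mmp28 (2.1) and Mmp15 (1.33) were the only others at a mean of 1 FPKM or more, so that 26 of the 39 genes lay under it. Gaps without overlap of the 6-sample ranges separated Timp4 from Mmp14, Timp2 from Mmp8 and Mmp11 from Adamts20, whereas Timp3 and Timp4 overlapped, as did Mmp14 and Timp2. Mmp14 was nevertheless above Timp2 in 6 of 6 samples.

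**Figure D1:**
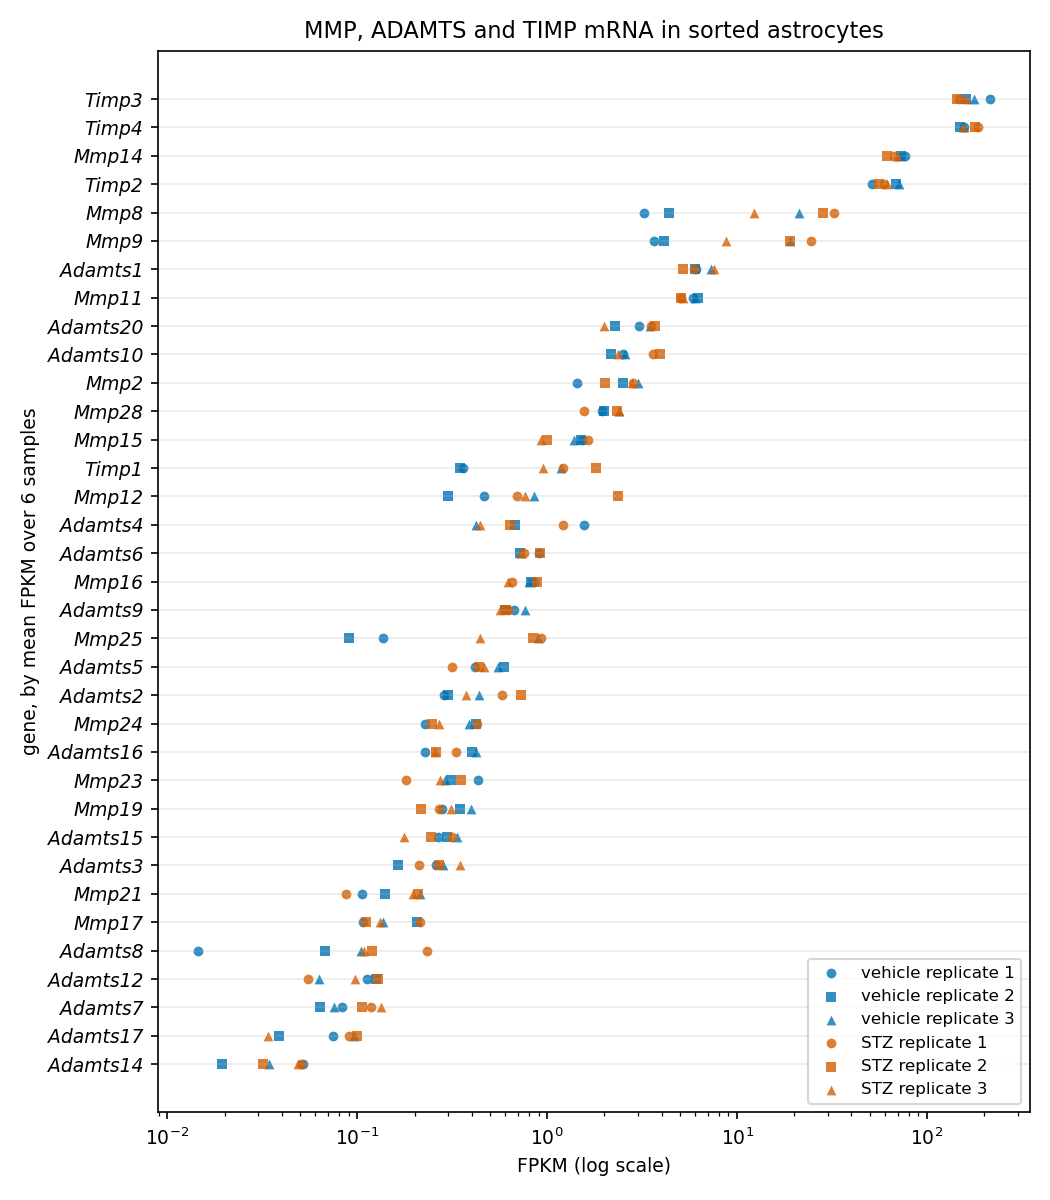
FPKM of the 35 tested genes in each of the 6 samples (log axis, genes ordered by their mean; colours are groups and symbols are replicates). Timp3, Timp4, Mmp14 and Timp2 lie to the right with narrow ranges, and Mmp8, Mmp9, Mmp25 and Timp1 are spread, with vehicle replicates 1 and 2 to the left.

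The genomic sequence before the start site is shown for the 3 most abundant genes, and for Mmp8 and Mmp25, which varied together across samples. The stretches are the 250 bases upstream of the start, on the strand of the gene, taken from RefSeq (GRCm38.p6): Timp3 at chr10:86300162-86300411 (plus strand), Timp4 at chr6:115252206-115252455 (minus), Mmp14 at chr14:54431348-54431597 (plus), Mmp8 at chr9:7558179-7558428 (plus) and Mmp25 at chr17:23645270-23645519 (minus). Capitals mark matches on either strand to the GC box GGGCGG, the PU.1 motif GAGGAAG or the C/EBP motif TTGCNNAA. The AP-1 motif TGANTCA and the TATA box TATAAA were searched too and are not in these stretches.
Timp3: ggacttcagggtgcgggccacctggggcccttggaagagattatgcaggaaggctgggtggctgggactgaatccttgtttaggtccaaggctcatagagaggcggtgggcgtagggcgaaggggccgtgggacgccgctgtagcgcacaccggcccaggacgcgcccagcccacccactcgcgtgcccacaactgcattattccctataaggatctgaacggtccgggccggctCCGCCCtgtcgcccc
Timp4: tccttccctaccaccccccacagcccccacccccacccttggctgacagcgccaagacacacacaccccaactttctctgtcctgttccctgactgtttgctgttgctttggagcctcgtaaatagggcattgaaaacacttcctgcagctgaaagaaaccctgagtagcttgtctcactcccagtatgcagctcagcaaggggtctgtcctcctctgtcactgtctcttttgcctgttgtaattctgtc
Mmp14: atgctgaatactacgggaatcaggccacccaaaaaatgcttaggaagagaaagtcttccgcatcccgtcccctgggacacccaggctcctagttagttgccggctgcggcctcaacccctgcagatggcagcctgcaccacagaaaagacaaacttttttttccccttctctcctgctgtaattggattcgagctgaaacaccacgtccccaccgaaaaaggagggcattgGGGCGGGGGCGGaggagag
Mmp8: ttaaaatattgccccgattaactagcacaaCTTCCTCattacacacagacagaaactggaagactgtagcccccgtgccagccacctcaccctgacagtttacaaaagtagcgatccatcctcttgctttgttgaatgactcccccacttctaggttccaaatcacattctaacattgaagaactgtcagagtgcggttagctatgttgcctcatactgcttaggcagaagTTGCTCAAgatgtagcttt
Mmp25: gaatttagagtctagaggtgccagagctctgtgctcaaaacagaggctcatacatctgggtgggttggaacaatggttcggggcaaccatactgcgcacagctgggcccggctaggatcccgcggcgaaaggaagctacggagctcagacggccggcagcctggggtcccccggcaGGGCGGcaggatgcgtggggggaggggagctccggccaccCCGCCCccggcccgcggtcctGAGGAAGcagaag

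Mmp14 held 2 GC boxes side by side within 19 bases of its start, and the printed stretch of Timp3 held 1, from base 15 to base 10 before the start. That of Timp4 held none of the motifs and 2 CpG dinucleotides, against 18 for Timp3. In Mmp8 a PU.1 match lay from base 220 to base 214 before the start and a C/EBP match from base 19 to base 12. Mmp25 had a PU.1 match from base 13 to base 7 and 2 GC boxes. Windows reaching 50 bases past the start were listed for 25 of the 39 genes (27 windows), and the GC box was in 18 of these 27 against 35.7% of all 32851 windows, PU.1 in 4 against 13.6%, C/EBP in 2 against 10.8%, AP-1 in 2 against 7.81% and the TATA box in 5 against 13.6%. A match of letters says nothing of binding.

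No gene of the 39 passed the threshold in STZ against vehicle samples. By edgeR's quasi-likelihood test (adjusted p under 0.05 and over 1.5-fold), 0 of the 35 tested genes were called, where 0.0224% of all 22337 tested genes were (5 genes). DESeq2 also called 0, where it called 1.05% of all genes. The smallest adjusted p among them was 0.382 with edgeR and 0.196 with DESeq2. Log2 fold changes ran from -0.44 (Mmp19) to 1.27 (Mmp8), with 15 above and 20 below 0 and a median of -0.074, beside 0.012 over all tested genes.

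At an unadjusted p under 0.05, 3 genes were lower with STZ (Mmp11, Mmp14 and Timp3) and 1 was higher (Adamts7). Of all tested genes, 5.65% were lower and 5.63% higher at this level, and the counts of 3 and 1 among 35 genes are to be read against these shares. In CPM with TMM scaling, which evens out differences in RNA composition, all STZ samples lay below all vehicle samples for 4 genes (Timp3, Mmp14, Mmp11 and Adamts9) and above them for 2 (Adamts7 and Adamts8), beside 9.85% and 8.64% of all tested genes. DESeq2 gave an unadjusted p under 0.05 in either direction for 5 of the 35 genes and for 10.3% of all tested genes. The 5 included Mmp12 and Adamts2, which were higher, but not Adamts7. The edgeR count of 4 was unstable, since it was 10 without vehicle replicate 3, 2 without vehicle replicate 2 and 0 without STZ replicate 2. Without STZ replicate 2 the log2 fold changes were still -0.29 for Mmp11, -0.17 for Mmp14 and -0.31 for Timp3. A fit with a sample left out also has less data to test with, so the counts alone do not show that the differences rest on 1 sample.

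**Figure D2:**
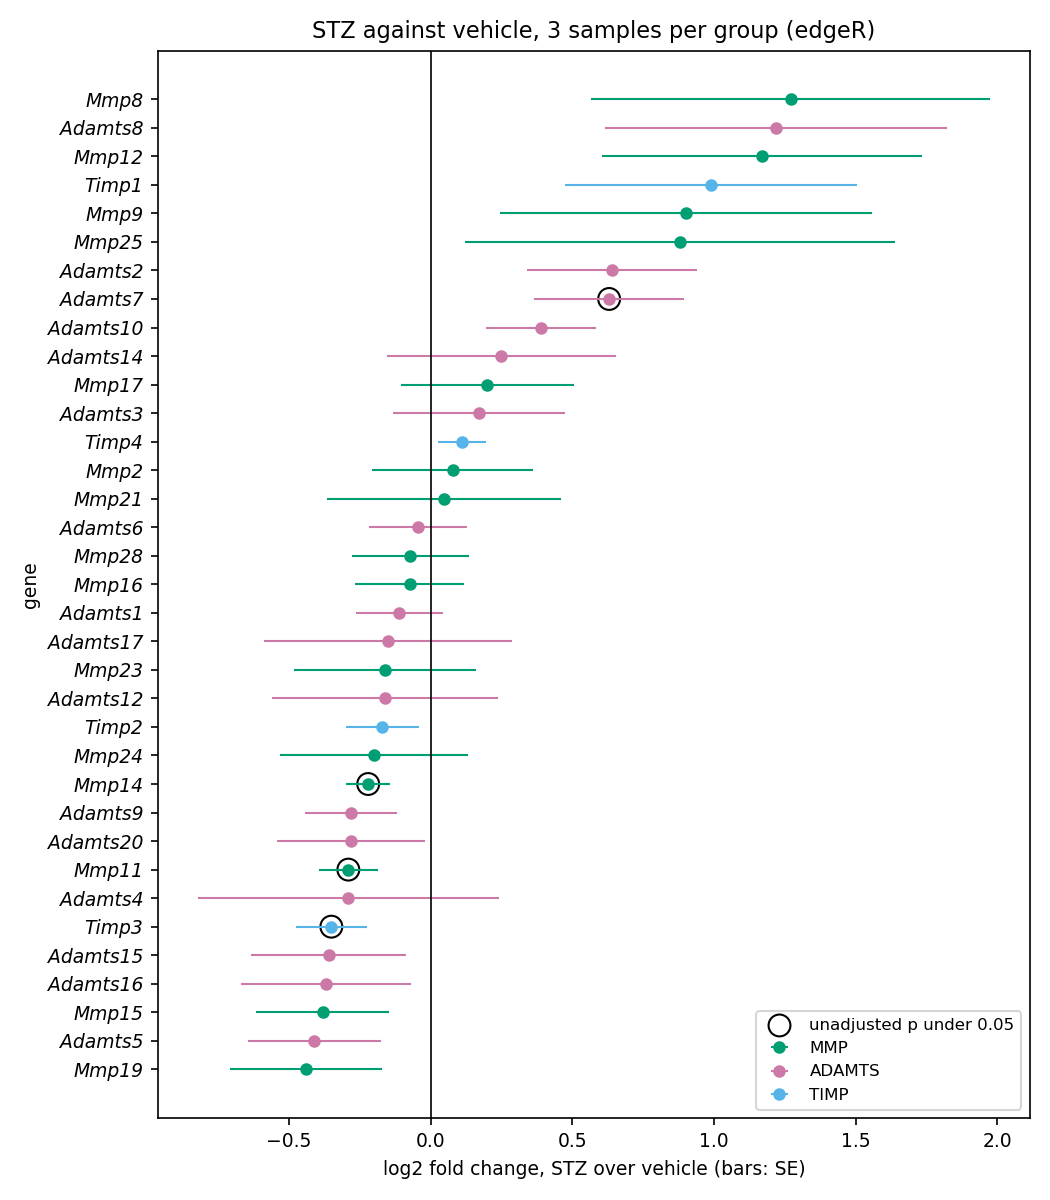
Log2 fold change of STZ over vehicle with its standard error for the 35 tested genes (edgeR, 3 samples per group; green MMPs, pink ADAMTS, blue TIMPs). Circled are Adamts7 at 0.63, Mmp14 at -0.22, Mmp11 at -0.29 and Timp3 at -0.35, and the genes at the top have the widest bars.

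Timp3, the only TIMP that is held in the matrix and one that also blocks ADAM and ADAMTS enzymes (NCBI gene 21859, chr10:86300412-86349505 of GRCm38), had 215, 160 and 177 FPKM in vehicle replicates 1 to 3 and 147, 144 and 161 FPKM in STZ replicates 1 to 3. Vehicle replicate 1 stood highest, and the groups met between vehicle replicate 2 and STZ replicate 3. In CPM, which does not scale by transcript length, the values were 1098, 812 and 899 with vehicle and 710, 704 and 796 with STZ, and the groups did not overlap. The log2 fold change was -0.35 (SE 0.125), with an unadjusted p of 0.0257 and an adjusted p of 0.390 by edgeR. It lay between -0.45 and -0.22 when each sample was left out in turn.

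Timp4, the TIMP with the most restricted expression, which is found in brain and heart (NCBI gene 110595, chr6:115244444-115252205), had 156, 150 and 156 FPKM with vehicle and 185, 180 and 155 FPKM with STZ. STZ replicates 1 and 2 were above all vehicle samples, and STZ replicate 3 was level with them. Timp4 differed by 0.11 on the log2 scale (SE 0.0849, adjusted p 0.644, edgeR). Timp2 (NCBI gene 21858, chr11:118301061-118355411) had 51.1, 68.4 and 71.5 FPKM with vehicle and 59.2, 55.8 and 61.6 FPKM with STZ, so the STZ samples lay within the vehicle range. For Timp2 the log2 fold change was -0.17 (SE 0.128, adjusted p 0.637).

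Timp1, the inducible TIMP of injured and inflamed tissue (NCBI gene 21857, chrX:20870166-20874737), was scarce beside the others. It had 0.358, 0.349 and 1.18 FPKM with vehicle and 1.21, 1.81 and 0.948 FPKM with STZ, from 18 to 98 counts per sample. Vehicle replicate 3 stood with the STZ samples, and vehicle replicates 1 and 2 stood apart below. STZ over vehicle, Timp1 had a log2 fold change of 0.99 (SE 0.516, adjusted p 0.513, edgeR) and reached 1.80 without vehicle replicate 3.

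Timp1, Timp3 and Timp4 each lie inside a synapsin gene (Syn1, Syn3 and Syn2, respectively), and the counting was not stated to use strand. Syn3 had 1008 to 1216 counts against 40975 to 58892 for Timp3, and Syn2 had 3740 to 5238 against 24763 to 34083 for Timp4. Syn1, with 296 to 386 counts, exceeded Timp1 in every sample, so that reads of the pair may have been assigned to either. Summed over the 4 TIMPs, the TPM was 1027, 883 and 930 with vehicle and 900, 868 and 856 with STZ. The means were 947 ± 73.6 and 874 ± 22.8 (SD, n = 3), a ratio of 0.924, and the ranges overlapped.

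Mmp14 (MT1-MMP), a collagenase anchored in the cell membrane that activates pro-Mmp2 (NCBI gene 17387, chr14:54431598-54442456), had 76.5, 73.0 and 72 FPKM with vehicle and 67.0, 61.8 and 69.8 FPKM with STZ. All STZ samples lay below all vehicle samples, with the narrowest gap between 72 and 69.8. The group means were 73.9 ± 2.34 and 66.2 ± 4.05 FPKM (SD, n = 3). By edgeR, Mmp14 had a log2 fold change of -0.22 (SE 0.0769), with an unadjusted p of 0.0242 and an adjusted p of 0.383.

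Mmp11, or stromelysin-3, which unlike most secreted MMPs is activated by furin inside the cell (NCBI gene 17385, chr10:75923221-75932502), had 5.88, 6.24 and 6.02 FPKM with vehicle and 5.08, 5.08 and 5.17 FPKM with STZ. The replicates of each group lay close together and the groups were apart. Mmp11 had a log2 fold change of -0.29 (SE 0.104, unadjusted p 0.0240, adjusted p 0.382) and stayed between -0.32 and -0.27 when single samples were left out. Of the 6 astrocyte markers, 3 (Aldh1l1, Aqp4 and Slc1a2) were also lower in every STZ sample than in any vehicle sample in CPM, and none was higher, while in TPM the groups overlapped for Slc1a2. Per 1000 TPM of summed astrocyte markers, Mmp11 had 1.53 to 1.91 TPM with vehicle and 1.48 to 1.69 with STZ, Mmp14 had 19.9 to 22.3 and 18.1 to 22.7, and Timp3 had 48.9 to 55.9 and 42.2 to 52.5, so that the groups overlapped on this scale for each of the 3 genes. The part of astrocyte content in the lower levels was not tested.

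**Figure D3:**
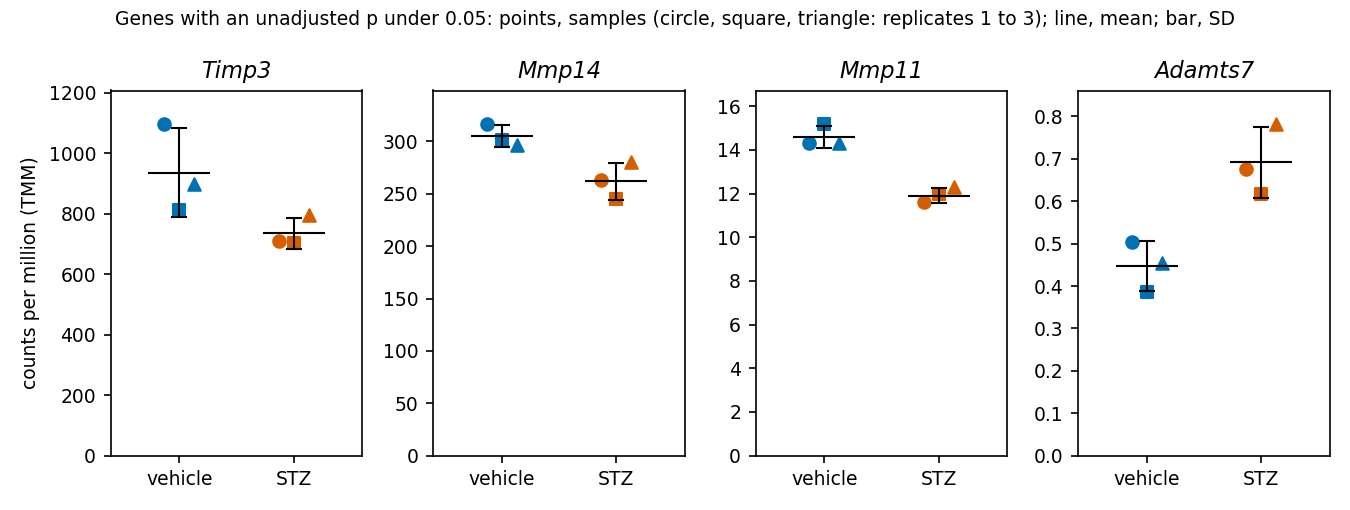
TMM-normalized CPM of the 4 genes with an unadjusted p under 0.05, one point per sample with group mean and SD (axes start at 0). For Timp3, Mmp14 and Mmp11 all STZ points lie below the vehicle points, and for Adamts7 all lie above, at under 1 CPM.

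Adamts7, a metalloprotease known for cutting cartilage oligomeric matrix protein (NCBI gene 108153, chr9:90162904-90200102), was barely detected. Its counts were 27, 20 and 26 with vehicle and 41, 36 and 46 with STZ, or 0.0637 to 0.0828 and 0.106 to 0.134 FPKM. The groups did not overlap. For Adamts7 the log2 fold change was 0.63 (SE 0.264, unadjusted p 0.0466, adjusted p 0.437 by edgeR), and DESeq2 gave an adjusted p of 0.651.

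Mmp8, the neutrophil collagenase (NCBI gene 17394, chr9:7558429-7568486), had the largest log2 fold change of the 35 genes but also one of the largest errors. Its values were 3.25, 4.36 and 21.3 FPKM with vehicle and 32.3, 28.4 and 12.3 FPKM with STZ. Vehicle replicates 1 and 2 were low, vehicle replicate 3 lay among the STZ samples, and STZ replicate 3 lay below vehicle replicate 3. STZ over vehicle, Mmp8 had a log2 fold change of 1.27 (SE 0.704, adjusted p 0.531, edgeR), and it ran from 0.85 to 2.60 when single samples were left out, the highest being without vehicle replicate 3.

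Mmp9, gelatinase B, which cuts denatured collagen and the type IV collagen of basement membranes (NCBI gene 17395, chr2:164940326-164955850), had 3.64, 4.12 and 18.9 FPKM with vehicle and 24.4, 19.0 and 8.69 FPKM with STZ. As with Mmp8, vehicle replicates 1 and 2 were the lowest samples. The difference of STZ from vehicle was 0.90 on the log2 scale (SE 0.656, adjusted p 0.626), from 0.53 to 2.09 with single samples left out. Mmp25, the membrane-anchored leukolysin of leukocytes (NCBI gene 240047, chr17:23628315-23645269), had 0.136, 0.0906 and 0.896 FPKM with vehicle and 0.922, 0.838 and 0.440 FPKM with STZ. Again vehicle replicates 1 and 2 were apart from the other 4 samples. The log2 fold change of Mmp25 was 0.88 (SE 0.760, adjusted p 0.688), and it was 2.48 without vehicle replicate 3.

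The level of these 3 proteases varied with that of the neutrophil markers across samples, which was seen in the values and then put into ratios. Mmp8 spanned 9.37-fold in TPM over the 6 samples, but per 1000 TPM of summed neutrophil markers it was 17.8, 22.5 and 19.3 TPM with vehicle and 23.0, 18.2 and 18.0 TPM with STZ, a span of 1.29-fold. The span of Mmp25 went from 10-fold to 1.73-fold and that of Mmp9 from 6.31-fold to 1.74-fold. Timp1 went from 5.06-fold to 2.27-fold. For each of the other 31 tested genes the ratio spanned at least 3.97-fold, and for Mmp14 the span widened from 1.32-fold to 10.6-fold. Per neutrophil marker TPM the highest Mmp8 values were in STZ replicate 1 and vehicle replicate 2, so the groups overlapped on this scale as well. The 4 neutrophil markers themselves did not separate the groups (log2 fold changes from 1.02 for Camp to 1.36 for S100a8, adjusted p from 0.523 to 0.634, edgeR). The endothelial markers were also lowest in vehicle replicates 1 and 2, and per endothelial marker TPM the span was 1.9-fold for Mmp8, 2.29-fold for Mmp9, 2.2-fold for Timp1 and 3.83-fold for Mmp25, so that for Timp1 the spans were alike. The parts of neutrophil and endothelial RNA in the levels of these genes were not tested.

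**Figure D4:**
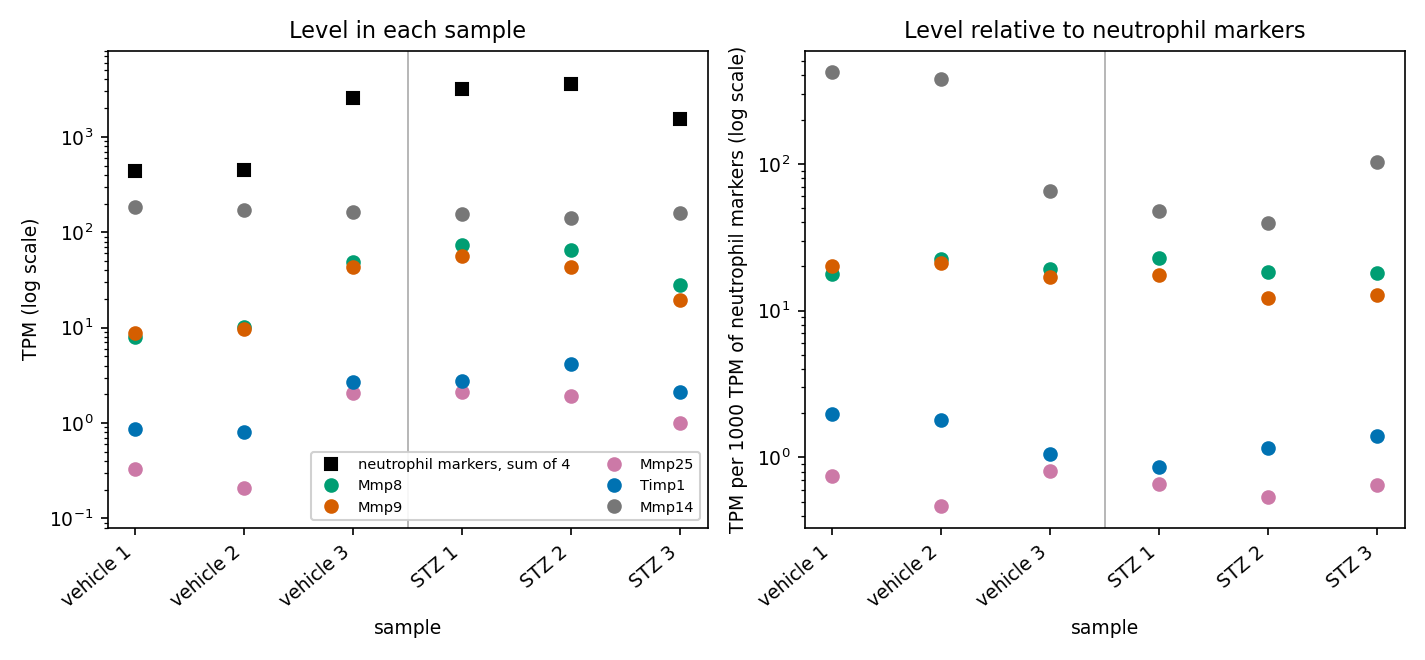
Left, TPM of Mmp8, Mmp9, Mmp25, Timp1, Mmp14 and the summed neutrophil markers in each sample (log axis); right, the same genes per 1000 TPM of those markers (log axis). On the left, Mmp8 in vehicle replicates 1 and 2 is far below the other samples, and on the right it stays between 17.8 and 23.0, while Mmp14 shows the reverse.

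Mmp2, gelatinase A (NCBI gene 17390, chr8:92827290-92853421), had 1.43, 2.51 and 3 FPKM with vehicle and 2.84, 2.01 and 2.79 FPKM with STZ, and the STZ samples lay within the vehicle range. Mmp2 had a log2 fold change of 0.079 (SE 0.284, adjusted p 0.941, edgeR). Mmp28 (epilysin) had 1.95, 2 and 2.39 FPKM with vehicle and 1.56, 2.33 and 2.39 FPKM with STZ, and a log2 fold change of -0.071 (SE 0.207, adjusted p 0.921). Mmp15 (MT2-MMP), a membrane enzyme related to Mmp14, had 1.53, 1.5 and 1.39 FPKM with vehicle and 1.63, 0.993 and 0.928 FPKM with STZ. STZ replicates 2 and 3 were below the vehicle samples and STZ replicate 1 above them, and the log2 fold change of Mmp15 was -0.38 (SE 0.235, adjusted p 0.574).

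Mmp12, the macrophage elastase, is encoded in the same cluster as Mmp8, which holds 10 MMP genes on chromosome 9 (Mmp1a, Mmp1b, Mmp3, Mmp7, Mmp8, Mmp10, Mmp12, Mmp13, Mmp20 and Mmp27), of which only Mmp8 and Mmp12 had reads in every sample. Mmp12 had 99, 62 and 193 counts with vehicle and 159, 518 and 173 counts with STZ. STZ replicate 2 was far above all others, and the other 2 STZ samples lay below vehicle replicate 3. On the log2 scale the difference was 1.17 (SE 0.564, adjusted p 0.486, edgeR; unadjusted p 0.0142 by DESeq2) and fell to 0.38 when STZ replicate 2 was left out. Mmp13 had 3, 4 and 2 counts with vehicle and 8, 0 and 0 with STZ.

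Without Mmp8, Mmp9 and Mmp25, the summed TPM of the other 13 MMPs was 218, 205 and 201 with vehicle and 185, 174 and 189 with STZ, with no overlap. Most of this sum was Mmp14, with 186, 170 and 165 TPM with vehicle and 154, 141 and 158 TPM with STZ. The separation is thus largely that of Mmp14, and among the 13 the log2 fold changes of Mmp2, Mmp12, Mmp17 and Mmp21 were above 0. Over all 16 MMPs the sums were 235, 225 and 295 with vehicle and 317, 284 and 237 with STZ, which overlapped. These sums were chosen after the values were seen. Mmp14 made up 55.8% to 79.0% of the MMP sum with vehicle and 48.4% to 66.4% with STZ, and Mmp8 and Mmp9 together 7.12% to 31.2% and 19.9% to 41.0%. The TPM of the 4 TIMPs over that of the 35 proteases was 3.73, 3.41 and 2.77 with vehicle and 2.51, 2.68 and 3.13 with STZ, and the groups overlapped.

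Among the ADAMTS proteases that cut proteoglycans (Adamts1, Adamts4, Adamts5, Adamts8, Adamts9, Adamts15 and Adamts20), 6 of 7 had a log2 fold change below 0 and none passed the unadjusted threshold. Adamts1, the most abundant ADAMTS gene with 29.8% to 48.0% of their summed TPM (NCBI gene 11504, chr16:85793827-85803113), had 6.10, 6.02 and 7.31 FPKM with vehicle and 5.92, 5.21 and 7.60 FPKM with STZ. The groups overlapped throughout, and its log2 fold change was -0.11 (SE 0.154, adjusted p 0.823, edgeR).

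Adamts20, known for its role in pigment cell migration (NCBI gene 223838, chr15:94268314-94432074), depended on the unit. It had 3.04, 2.27 and 3.49 FPKM with vehicle and 3.54, 3.70 and 2 FPKM with STZ, while its counts were 812, 738 and 1191 with vehicle and 1184, 624 and 650 with STZ. STZ replicate 2 was thus the highest sample in FPKM and the lowest in counts. From the counts, the log2 fold change was -0.28 (SE 0.262, adjusted p 0.714, edgeR).

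Adamts8, an aggrecanase first described as an inhibitor of vessel growth, had 4, 18 and 30 counts with vehicle and 67, 34 and 31 with STZ. All STZ samples were above the vehicle samples, but STZ replicate 3 by 1 read before normalization. Adamts8 had a log2 fold change of 1.22 (SE 0.603, adjusted p 0.494, edgeR), the only one above 0 among the 7 proteoglycan-cleaving enzymes. The endothelial markers were also higher in mean with STZ (4 of 8 were above the vehicle range in every STZ sample), and Adamts8 ran from 0.560 to 1.80 TPM per 1000 TPM of these markers with vehicle and from 0.830 to 1.21 with STZ. The part of RNA of endothelial or other cells in this gene was not tested.

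Adamts9, a versicanase, had 0.600 to 0.762 FPKM with vehicle and 0.566 to 0.620 with STZ, groups that overlapped in FPKM and not in CPM, with a log2 fold change of -0.28 (SE 0.162, adjusted p 0.544). Adamts4, an aggrecanase, was high in vehicle replicate 1 (1.57 FPKM) and STZ replicate 1 (1.21 FPKM) and between 0.423 and 0.673 FPKM in the other samples. The same 2 samples had the highest summed oligodendrocyte markers, 1432 and 2289 TPM, against 447 to 657 TPM in the rest. The part of oligodendrocyte RNA in these values was not tested. Adamts5 and Adamts15 lay between 0.175 and 0.593 FPKM in all samples, with overlapping groups.

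The procollagen N-proteinases, which trim the ends of fibrillar collagens, had low levels. Adamts2 had 123, 123 and 199 counts with vehicle and 263, 322 and 168 with STZ, and a log2 fold change of 0.64 (SE 0.301, adjusted p 0.474, edgeR). Its TPM spanned 2.38-fold over the samples, against 1.64-fold per fibroblast marker TPM and 1.68-fold per mural marker TPM. Per TPM of the other marker sums the span was wider than 2.38-fold. Summed fibroblast markers were 22.9 to 34.4 TPM with vehicle and 26 to 39.7 TPM with STZ. The part of fibroblast or mural RNA in Adamts2 was not tested. Adamts3 and Adamts14 had means of 0.255 and 0.0393 FPKM. Adamts10, which binds fibrillin microfibrils (NCBI gene 224697, chr17:33523646-33553782), had 2.5, 2.17 and 2.57 FPKM with vehicle and 3.61, 3.94 and 2.37 FPKM with STZ. STZ replicates 1 and 2 were above all vehicle samples and STZ replicate 3 was among them. Its log2 fold change was 0.39 (SE 0.195, adjusted p 0.501).

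The remaining genes were scarce and their groups overlapped. They were the MMPs Mmp16, Mmp17, Mmp19, Mmp21, Mmp23 and Mmp24 and the ADAMTS proteases Adamts6, Adamts12, Adamts16 and Adamts17. In all, 24 of the 39 genes had neither a mean of 1 FPKM nor an unadjusted p under 0.05, TIMPs aside, and their means ran from 0.00443 (Adamts19) to 0.905 FPKM (Mmp12). Of the 20 tested among these, 8 had a log2 fold change above 0 and 12 below, from -0.44 to 1.22, and the smallest adjusted p was 0.474. Adamts18 had 0, 21 and 10 counts with vehicle and 27, 17 and 24 with STZ. Adamts13, the protease of von Willebrand factor, had 4, 0 and 17 counts with vehicle and 0, 4 and 3 with STZ, and Adamts19 had 0, 3 and 0 with vehicle and 3, 0 and 6 with STZ.

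A list of 41 genes was taken: those that activate, inhibit or clear these enzymes or are cut by them, and related ADAM and ADAMTS-like genes. Of the list, 40 were found by symbol and 36 tested. None was called by edgeR, and 1 by DESeq2, beside 0.0224% and 1.05% of all tested genes. At an unadjusted p under 0.05, 4 were higher and 8 lower with STZ, 12 of 36, beside the 5.63% and 5.65% of all tested genes given above. The list was chosen with earlier results of these data known, so its larger share is no test of the list. The median log2 fold change of the 36 was -0.16. Without STZ replicate 2 the count was 9, and in no other case of leaving out a sample was it under 11 or over 13.

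Among activators, Plat (tissue plasminogen activator) had 28.4, 25.9 and 39.3 FPKM with vehicle and 56.4, 48.5 and 40.7 FPKM with STZ. All STZ samples were higher, the closest pair being 39.3 and 40.7. Its log2 fold change was 0.58 (SE 0.173, adjusted p 0.324 by edgeR and 0.0510 by DESeq2). Summed endothelial markers were 62.6, 87 and 221 TPM with vehicle and 439, 326 and 229 TPM with STZ. Like Plat, they were lowest in vehicle replicates 1 and 2, as were the summed neutrophil and mural markers. The part of endothelial, neutrophil or mural RNA in the level of Plat was not tested. Pcsk6, a proprotein convertase, had a log2 fold change of -0.44 (SE 0.128, adjusted p 0.311). The activators Plg and Plau had no reads in at least 1 sample and were not tested. The broad protease inhibitor A2m had a log2 fold change of 0.49 (SE 0.197, adjusted p 0.417), and the sheddase Adam17, a target of Timp3, one of -0.25 (SE 0.0844, adjusted p 0.356). The ADAMTS-like genes Adamtsl3 and Adamtsl5, which lack the protease domain, differed in direction, with log2 fold changes of 1.19 (SE 0.440, adjusted p 0.395) and -0.43 (SE 0.118, adjusted p 0.302). A2m and Adamtsl3 were also lowest in vehicle replicates 1 and 2, and the part of endothelial, neutrophil or mural RNA in them was not tested. Nor was that of astrocyte content in the lower levels of Pcsk6, Adam17 and Adamtsl5.

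The substrates most typical of brain matrix are the lecticans, large proteoglycans that bind hyaluronan. Ncan (neurocan) had 24.8, 20.7 and 17.4 FPKM with vehicle and 14.7, 17.1 and 14.0 FPKM with STZ, and the STZ samples were all lower, with 17.4 and 17.1 the closest pair. Its log2 fold change was -0.52 (SE 0.138, adjusted p 0.301 by edgeR and 0.0413 by DESeq2, with a change under 1.5-fold). Bcan (brevican), by far the most abundant, had 975, 879 and 867 FPKM with vehicle and 792, 816 and 820 FPKM with STZ. Again no STZ sample reached the vehicle range. The log2 fold change of Bcan was -0.23 (SE 0.105, unadjusted p 0.0600, adjusted p 0.465), that of Vcan (versican) was -0.24 (SE 0.180, adjusted p 0.641), and Acan (aggrecan) had no reads in most samples. Summed astrocyte markers were 7629 to 9362 TPM with vehicle and 6933 to 7772 TPM with STZ, and 3 of the 6 were lower in every STZ sample in CPM. Their part in the lower levels of Ncan and Bcan was not tested.

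Hapln1, the link protein that ties lecticans to hyaluronan, had 18.7, 18.4 and 19.4 FPKM with vehicle and 13.1, 16.8 and 15.9 FPKM with STZ. All STZ samples were lower, and its log2 fold change was -0.36 (SE 0.102, adjusted p 0.303). Dag1 (dystroglycan), which anchors astrocyte endfeet to the basement membrane and is cut by Mmp2 and Mmp9, had a log2 fold change of -0.30 (SE 0.0950, adjusted p 0.345), and Thbs2, a thrombospondin, one of -0.45 (SE 0.156, adjusted p 0.371). The part of astrocyte content in the lower levels of Hapln1, Dag1 and Thbs2 was not tested. Sparc, a matrix glycoprotein of astrocytes and vessels, was the only substrate that was higher at an unadjusted p under 0.05, with 585, 524 and 549 FPKM with vehicle and 963, 762 and 664 FPKM with STZ. Its groups did not overlap, and its log2 fold change was 0.44 (SE 0.134, adjusted p 0.326 by edgeR and 0.0635 by DESeq2). Summed endothelial and mural markers were also higher in mean with STZ. In CPM, 4 of the 8 mural markers (Acta2, Tagln, Myh11 and Rgs5) were above the vehicle range in every STZ sample. Their log2 fold changes were 1.02 (Rgs5) to 2.65 (Tagln). For the other mural markers the groups overlapped, with log2 fold changes of -0.081 (Pdgfrb), 0.073 (Vtn), 0.50 (Kcnj8) and 0.87 (Abcc9). The part of endothelial and mural RNA in the level of Sparc was not tested. Of the substrates that missed the unadjusted threshold in edgeR, Thbs1, another thrombospondin, had a log2 fold change of 0.77 (SE 0.350, adjusted p 0.465; unadjusted p 0.0138 by DESeq2) and Fn1 (fibronectin) one of 0.64 (SE 0.471, adjusted p 0.634), both named after their values were seen. Both were lowest in vehicle replicates 1 and 2, as the summed endothelial, neutrophil and mural markers were. The part of RNA of these cells in Thbs1 and Fn1 was not tested.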

How the data were processed

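RNA sequencing covered 6 samples, 3 per group, each sorted cells of 3 pooled mice. Per the labels and methods, the authors used HISAT2 2.1.0 on mm10 and StringTie 2.1.3b, and deposited whole-number read counts per gene. The deposited FPKM and TPM values were made by the authors per transcript length and depth; library kits are named differently in the labels (SMART-Seq mRNA) and the methods (TruSeq v2 and SMART-Seq v4), and strand use is not given in the sources used here. Genes with a count in every sample (22337) were tested by edgeR 4.0.16 (R 4.3.3; TMM, quasi-likelihood, group only, two-sided, Benjamini-Hochberg over all genes), and the threshold was an adjusted p under 0.05 with over 1.5-fold. Alternatives were DESeq2 1.42.0 (the authors' tool), its size factors, no filter, filterByExpr, a replicate block, robust fitting and leaving out each sample. The code was tested on simulated data.

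Genes given in full were the TIMPs, those at a mean of at least 1 FPKM and those with an unadjusted p under 0.05; other genes singled out (Mmp12, Mmp25, Adamts2, Adamts4, Adamts8 and Adamts9) were picked after their values were seen. The gene families and lists were chosen with earlier results of these data known. Same-numbered samples did not deviate together (correlations over genes of -0.101, -0.162 and -0.184), so replicate numbers were not taken to pair samples. Positions and promoter windows are from RefSeq (GRCm38.p6). P-values measure the spread between these pools. No 2 samples agreed within sampling noise. Some genes of the wider pathway list are counted but not reported here by name.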

Additional observations from a re-analysis of the deposited data

How the results depend on the processing

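No alternative called any of the 35 genes. At an unadjusted p under 0.05 the number among the 39 genes was 4, and it became 1 (Timp3) with the replicate block and 0 to 10 when single samples were left out. The edgeR calls over all genes (5) became 234 with DESeq2, 10 with robust fitting, 0 with the replicate block and 0 to 1 with a sample left out. The cause of these differences was not tested. The replicate block changed no call among the 39 genes. Of 36 log2 fold changes followed, 4 values reversed: Adamts1 was 0.0067 without STZ replicate 2 (range with a sample left out -0.29 to 0.0067), Mmp2 was -0.18 without vehicle replicate 1 (-0.18 to 0.30), and Mmp28 was 0.015 without vehicle replicate 3 and 0.11 without STZ replicate 1 (-0.19 to 0.11). Another scaling moved the median of all genes by -0.0046. The TIMP ratio (0.924) stayed between 0.893 and 0.965. Depth limits genes with few reads. Among those described, Timp1 had 18 to 98 counts, Adamts7 had 20 to 46 and Adamts8 had 4 to 67. Among the rest, Adamts14 had 6 to 17. Standard errors of 0.516 to 0.760 for Timp1, Mmp9, Mmp8 and Mmp25 hold both counting error and the spread between 3 pools per group, which were not told apart.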
